A study of Mus musculus with 34 samples.

Results

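Primordial germ cells (PGCs) of the fetal gonad were compared after vitamin C withdrawal and with vitamin C supplied, by CUT&RUN for dimethylated lysine 9 of histone H3 (H3K9me2). The comparison covers every row of a pair of result tables for these cells, 27021 genes and 1456 repeat families, and rests on 10 of the 34 libraries of the series. All embryos were Gulo-/- females on a C57BL/6 background at embryonic day 13.5. The groups were 5 H3K9me2 libraries of PGCs from embryos withdrawn from vitamin C over the first 2 weeks of gestation and 5 from embryos supplied with physiological levels. Since Gulo encodes the enzyme that completes vitamin C synthesis, both groups depended on vitamin C from the diet. PGCs were sorted as Oct4GFP-positive cells, and 1000 cells entered each library, which was amplified by 18 PCR cycles. The Oct4GFP-negative soma of the gonads, with 3 withdrawn and 4 supplied H3K9me2 libraries, served for comparison. The rest of the series was IgG control libraries in the same numbers, not analysed here.

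H3K9me2 marks repressed chromatin and is written mainly by the EHMT1 and EHMT2 methyltransferases. It is removed by JmjC demethylases such as KDM3A and KDM3B, which need iron and 2-oxoglutarate and are aided by vitamin C. The TET enzymes, which oxidise methylated DNA, belong to the same dioxygenase family. PGCs are known for losing both DNA methylation and much of their H3K9me2 as they migrate to and settle in the gonad, while germline genes and retrotransposons lose methylation at their promoters. Female PGCs enter meiosis at about the stage sampled.

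The table headers name neither the antibody nor the direction of subtraction, and the tables were assumed to be of H3K9me2. The IgG groups have the same sizes, so library numbers do not separate the antibodies. In soma, the standard errors of all 28706 genes fitted 3 libraries minus 4 with a misfit of 0.396% and the reverse with 3.16%. The better fit gives withdrawn minus supplied. With 5 libraries on each side the PGC sign cannot be read in this way, so it was assumed to be withdrawn minus supplied, and turning it would turn every PGC direction below. The tables list no value per library. Each level below is the mean of all 10 libraries in log2 CPM (read counts scaled to library size), each difference is a log2 fold change, and ± gives its standard error (SE). The geometric mean effective library size was at least 613601 reads over genes and 792226 over families in PGCs. At these smallest sizes the median gene had 6.53 reads a library and the median family 32.1, so both are lower bounds.

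The levels over marker genes are mean read levels that were not set against the IgG libraries, so they may include background. They do not test cell identity, since no RNA was measured. Per kilobase of gene, and relative to the median gene of the same table, 10 measured germ cell markers had a median of 0.22 log2 units in PGCs and 0.18 in soma, with 3 of the 10 lower in PGCs. Pou5f1, the gene of the Oct4 protein behind the reporter's name, was the highest of them in PGCs, at 2.78 above the median gene. Its level per kilobase was 2.23 log2 CPM in PGCs and 2.51 in soma. On the same relative scale, supporting cell markers had medians of 0.21 in PGCs and -0.09 in soma, and stromal markers 1.20 and 0.36. Endothelial markers had 0.06 and -0.09, and blood markers -0.06 and 0.29. The libraries are labelled female, yet 54 Y-linked genes are listed in the authors' deposited PGC table. Over 8 of them, Ddx3y, Eif2s3y, Kdm5d, Uba1y, Usp9y, Uty, Zfy1 and Zfy2, the median level per kilobase was -1.41 log2 CPM in PGCs and -2.40 in soma, against -0.55 for autosomal and -0.47 for X-linked genes in PGCs. Uty, a demethylase relative, was the highest of the 8 at 0.03 and Uba1y the lowest at -2.64. The log2 fold change was below 0 for 7 of these 8 genes, with a median of -0.57 by the authors' deposited table. The source of these Y-linked reads was not tested.

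Promoters of 4 genes that recur below are shown because they span the range of CpG content, the substrate of the DNA methylation that PGCs lose. Each window runs from 250 bases before to 50 after an annotated start, 5′ to 3′ on the gene's strand, in RefSeq's GRCm38.p6 build, with each CG in capitals. For Ddx4 and Tet1 the start used lies inside the gene, whose outer ends are chr13:112652633 and chr10:62887469.
Dazl, chr17:50293571-50293870, minus strand: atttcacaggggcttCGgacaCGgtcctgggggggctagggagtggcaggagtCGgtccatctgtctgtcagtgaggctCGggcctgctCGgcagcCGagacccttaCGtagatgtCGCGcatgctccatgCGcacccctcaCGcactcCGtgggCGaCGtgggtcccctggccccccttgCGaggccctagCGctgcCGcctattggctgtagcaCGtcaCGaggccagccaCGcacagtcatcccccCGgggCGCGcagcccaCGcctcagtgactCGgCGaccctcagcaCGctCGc
Ddx4, chr13:112652261-112652560, minus strand: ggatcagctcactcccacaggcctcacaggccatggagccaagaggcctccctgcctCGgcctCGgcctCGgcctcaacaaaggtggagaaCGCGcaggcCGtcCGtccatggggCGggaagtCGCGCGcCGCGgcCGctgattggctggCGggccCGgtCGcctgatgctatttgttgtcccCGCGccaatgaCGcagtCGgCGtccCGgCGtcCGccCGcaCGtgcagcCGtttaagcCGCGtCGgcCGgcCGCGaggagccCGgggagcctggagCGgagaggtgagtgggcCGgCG
Tet1, chr10:62887275-62887574, minus strand: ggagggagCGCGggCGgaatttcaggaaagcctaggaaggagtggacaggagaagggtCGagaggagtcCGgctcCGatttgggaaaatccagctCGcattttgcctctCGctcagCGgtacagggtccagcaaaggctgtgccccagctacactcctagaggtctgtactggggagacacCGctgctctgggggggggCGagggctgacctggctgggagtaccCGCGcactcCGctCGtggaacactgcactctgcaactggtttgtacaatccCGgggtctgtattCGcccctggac
Olfr109, chr17:37465958-37466257, plus strand: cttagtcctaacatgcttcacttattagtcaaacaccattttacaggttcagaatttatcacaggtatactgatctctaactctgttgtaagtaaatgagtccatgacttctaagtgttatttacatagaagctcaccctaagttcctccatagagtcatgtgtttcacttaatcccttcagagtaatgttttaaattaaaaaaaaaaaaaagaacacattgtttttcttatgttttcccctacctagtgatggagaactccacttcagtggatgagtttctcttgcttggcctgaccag
The Dazl window holds 28 CG, and 16.8% of the 19483 promoters matched to measured genes hold as many or more. Ddx4 has 38 CG (5.68% hold as many or more), Tet1 has 17 (38.6%) and Olfr109 has 0, as the lowest possible count (100%). The tables give 1 value per gene and none for the promoter window alone.

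No gene passed the test in PGCs. Of 27021 genes, 0 (0%) had a limma adjusted p under 0.05 in the authors' deposited table, and 266 (0.984%) had an unadjusted p under 0.05, 117 of them above 0 and 149 below. Of 1456 repeat families 0 (0%) passed by limma, and 2 (0.137%) had an unadjusted p under 0.05 in the authors' deposited table. The median log2 fold change was -0.064 for genes, with quartiles of -0.30 and 0.19, and 0.050 for families, with quartiles of -0.20 and 0.31. In soma, by the same limma rule, 19598 of 28706 genes (68.3%) and 1147 of 1482 families (77.4%) passed in the authors' deposited tables, with medians of 1.04 and 1.18.

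**Figure D1:**
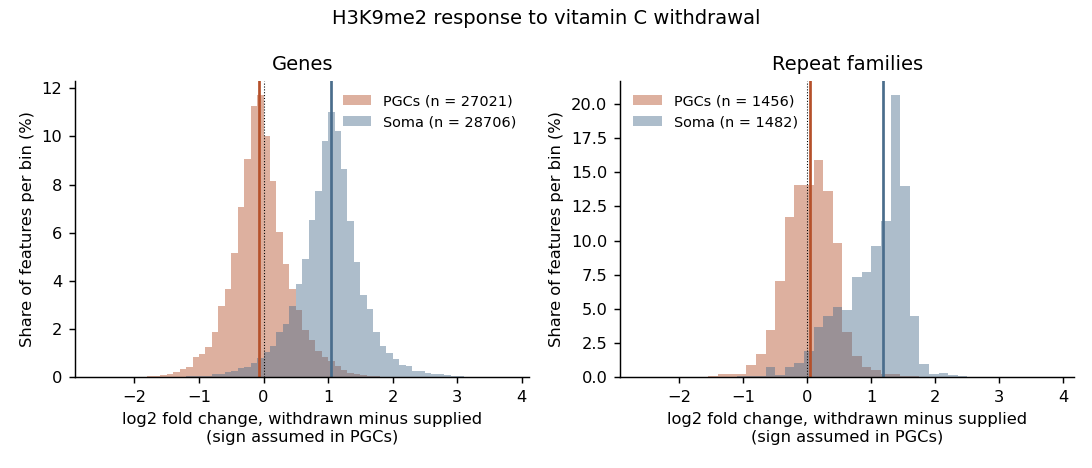
Distribution of log2 fold changes (x axis) as the share of features in each bin (y axis, %) for genes, left, and repeat families, right, with PGCs in orange and soma in blue. Solid lines mark medians and the dotted line 0. The PGC medians, -0.064 and 0.050, lie close to 0, and the soma medians, 1.04 and 1.18, lie to the right.

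The intervals show what sizes these data could bound. The 95% interval extended to either side by a median of 1.13 log2 units for genes and 1.15 for families, and a single feature at the median SE would have needed a log2 fold change of about 2.75 to pass if it were the only one. The 95% interval lay wholly between -1 and 1 for 2474 genes (9.16%) and for 49 families (3.37%), and for 99 genes and 5 families when the residual degrees of freedom of 8 were used. A change as large as the soma median lay above the 95% interval for 14252 genes (52.7%) and 668 families (45.9%), and the same size in the other direction lay below it for 11086 genes (41.0%) and 932 families (64.0%). With 8 degrees of freedom, an alternative chosen after seeing the data, these counts were 9448 genes and 530 families, and 5854 genes and 688 families in the other direction. The soma median used as the bound depends on the authors' library scaling, which is not given.

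The spread of the genes was smaller than their standard errors. Over 10 equal bins of genes by average level, the SD of the log2 fold change between genes was 0.65 in the lowest bin and 0.18 in the highest, and the median SE 0.76 and 0.44. The t statistics had an SD of 0.71 for genes and 0.65 for families, and 0.86 in the lowest against 0.42 in the highest bin of genes. In soma the SD of t was 1.77 for families. Neighbouring genes up to 10000 bases apart had log2 fold changes correlated at r = 0.04 over 8496 pairs, which share libraries and depth.

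**Figure D2:**
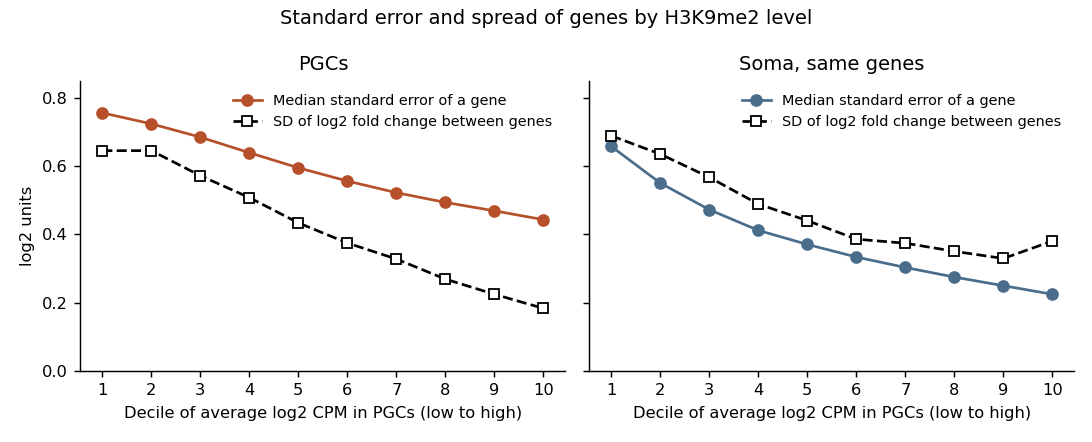
Median SE of a gene's log2 fold change (filled circles) and SD of log2 fold changes between genes (open squares), both in log2 units on the y axis, for PGCs, left, and for the same genes in soma, right, in 10 equal bins of average level in PGCs on the x axis. In PGCs the SD lies below the SE in every bin, at 0.18 against 0.44 in the highest; in soma it lies above the SE.

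Genes of vitamin C uptake and recycling lay near the centre of the distribution. Of 24 listed, 23 were measured and 13 were above 0, with a median of 0.06, 0 at an unadjusted p under 0.05, and a range from -0.47 for Slc23a3 to 0.72 for Cyb5a in the authors' deposited table. Gulo stood at 0.02 ± 0.56, Slc23a2, the widespread vitamin C transporter, at -0.27 ± 0.45 and Slc23a1, the epithelial transporter, at 0.40 ± 0.68 in the authors' deposited table. The sign of the list's median turned among genes of higher average level alone. In soma 20 of the 23 rose, where 68.3% of all genes passed in either direction (29 of them lower), with a median of 1.09 against 1.04 for all genes by the authors' deposited table.

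The vitamin C dependent enzymes and their opponents were likewise without a call. Of 12 measured genes of the TET and DNA demethylation list, 4 were above 0 with a median of -0.09, and Tdg, the glycosylase that removes oxidised bases, had the highest value at 0.65 in the authors' deposited table. For Tet1 the value was -0.05 ± 0.47 (95% interval -0.97 to 0.87), for Tet2 -0.17 ± 0.45 and for Tet3 -0.25 ± 0.46 in the authors' deposited table. Of 12 H3K9 demethylase genes 2 were above 0, with a median of -0.10, from -0.54 ± 0.49 for Kdm3a to 0.23 ± 0.50 for Kdm4a in the authors' deposited table. Kdm3b stood at -0.07, Kdm4b at 0.05 and Kdm4c at -0.11 in the authors' deposited table. Among 24 other vitamin C hydroxylases, such as the collagen prolyl hydroxylases, 7 were above 0 with a median of -0.17. P4ha1, a collagen prolyl hydroxylase subunit, stood at -0.53 ± 0.52 in the authors' deposited table.

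Genes of the enzymes that write the mark had no call either. Of 15 measured H3K9 methyltransferase and partner genes 4 were above 0, with a median of -0.18, and 0 had an unadjusted p under 0.05 in the authors' deposited table. Ehmt1 stood at -0.18 ± 0.44, Ehmt2 at -0.22 ± 0.48, Setdb1, the H3K9 trimethylase of retroviral sequence, at -0.53 ± 0.49 and Cbx1, a reader of H3K9 methylation, at -0.58 ± 0.49 in the authors' deposited table. Of 17 DNA methylation and imprint maintenance genes 7 were above 0, with a median of -0.06. Zfp57, which guards imprints, had the highest value at 1.13 ± 0.64, and Uhrf1, which brings DNMT1 to newly copied DNA, stood at 0.61 ± 0.60 in the authors' deposited table. Dnmt1 stood at 0.02, Dnmt3a at -0.23 and Dnmt3b at -0.11 in the authors' deposited table.

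**Figure D3:**
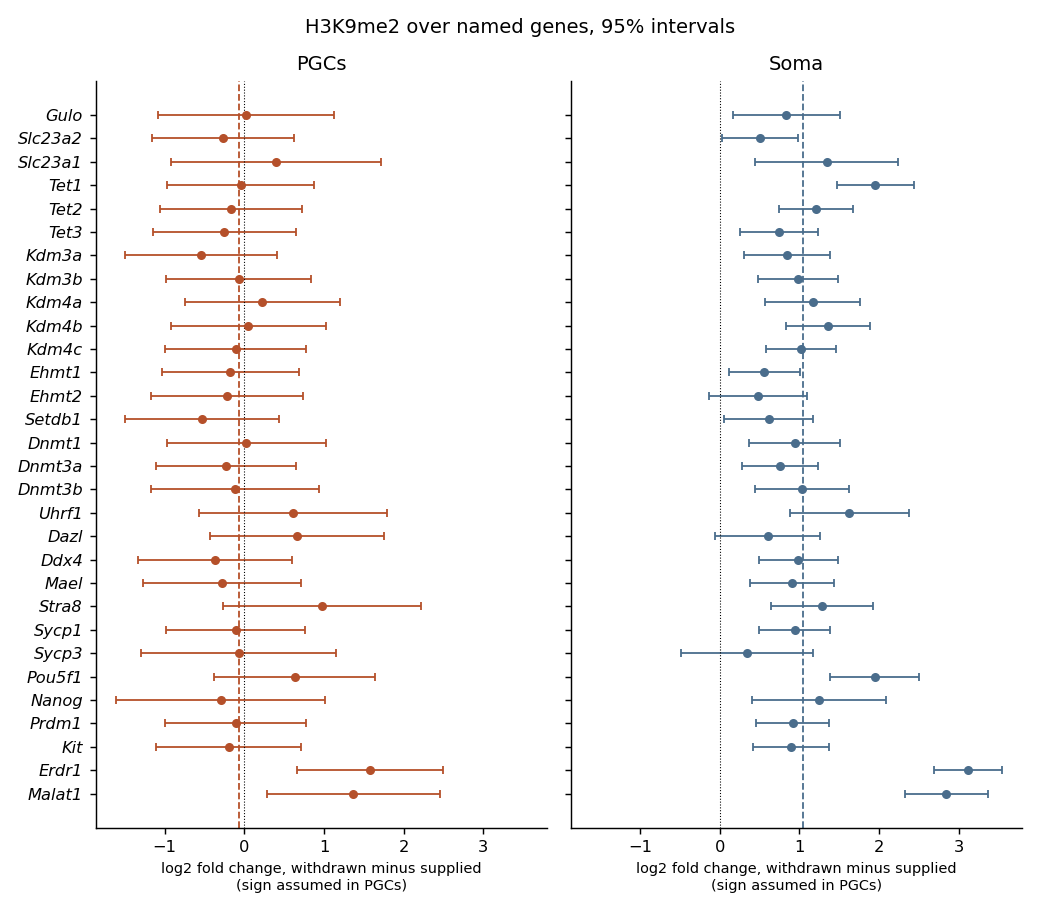
Log2 fold change (x axis) with 95% interval for 30 named genes (rows) in PGCs, left, and soma, right; the dashed line is the median of all genes and the dotted line 0. In PGCs the intervals of all but Erdr1 and Malat1 include 0 before any adjustment, while in soma most lie above 0, Tet1 at 1.95 among them.

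Germline genes kept silent by promoter methylation in other cells are of interest in PGCs because they lose that methylation before meiosis. Of 43 listed, 40 were measured, 14 were above 0 and 0 had an unadjusted p under 0.05, with a median of -0.15 by the authors' deposited table. The highest was Tdrd5, a piRNA factor, at 0.99 ± 0.58, and the lowest Pld6, a piRNA nuclease, at -1.02 ± 0.73 in the authors' deposited table. For Dazl, an RNA-binding protein of germ cells, the value was 0.66 ± 0.56, for Ddx4, an RNA helicase of germ cells, -0.36 ± 0.49, and for Mael, of the piRNA pathway, -0.28 ± 0.51 in the authors' deposited table. Both CpG-rich promoters printed above, those of Dazl and Ddx4, thus belong to genes with values on opposite sides of 0 and with intervals that include 0.

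Meiosis, pluripotency and oocyte genes gave medians close to 0. Of 38 meiosis genes 15 were above 0 with a median of -0.11, from Mlh3, a mismatch repair protein of crossovers, at -0.89 ± 0.49 to Stra8, which starts meiosis, at 0.98 ± 0.63 in the authors' deposited table. Sycp1 and Sycp3, of the synaptonemal complex, stood at -0.11 and -0.07 in the authors' deposited table. Of 28 PGC and pluripotency genes 11 were above 0 with a median of -0.09, from Klf5 at -0.64 to Klf2 at 1.08, both Krüppel-like transcription factors, in the authors' deposited table. Pou5f1 stood at 0.63 ± 0.52 and Nanog, another pluripotency factor, at -0.30 ± 0.67 in the authors' deposited table. Of 27 oocyte genes 15 were above 0 with a median of 0.03, whose sign turned under weighting or a level filter, and 1, H1foo, the oocyte linker histone, had an unadjusted p under 0.05, at -1.82 ± 0.70 (p = 0.00977, limma, adjusted p = 1.00) in the authors' deposited table. Among 47 measured imprinted genes 18 were above 0 with a median of -0.05, and Zim2 stood at 1.43 ± 0.66 (unadjusted p = 0.0306, limma) in the authors' deposited table.

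Genes of the other gonadal cells, which the sort should leave behind, had medians from -0.32 to 0.06. Of 24 supporting cell genes 11 were above 0 (median -0.14), of 15 endothelial genes 7 (median -0.02) and of 15 blood genes 8 (median 0.02) in the authors' deposited table. The signs of the endothelial median, under a level filter, and of the blood median, under weighting, turned. Among 18 stromal genes 5 were above 0 with a median of -0.32, and Postn, an extracellular matrix protein, was the lowest at -0.94 ± 0.54 in the authors' deposited table.

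**Figure D4:**
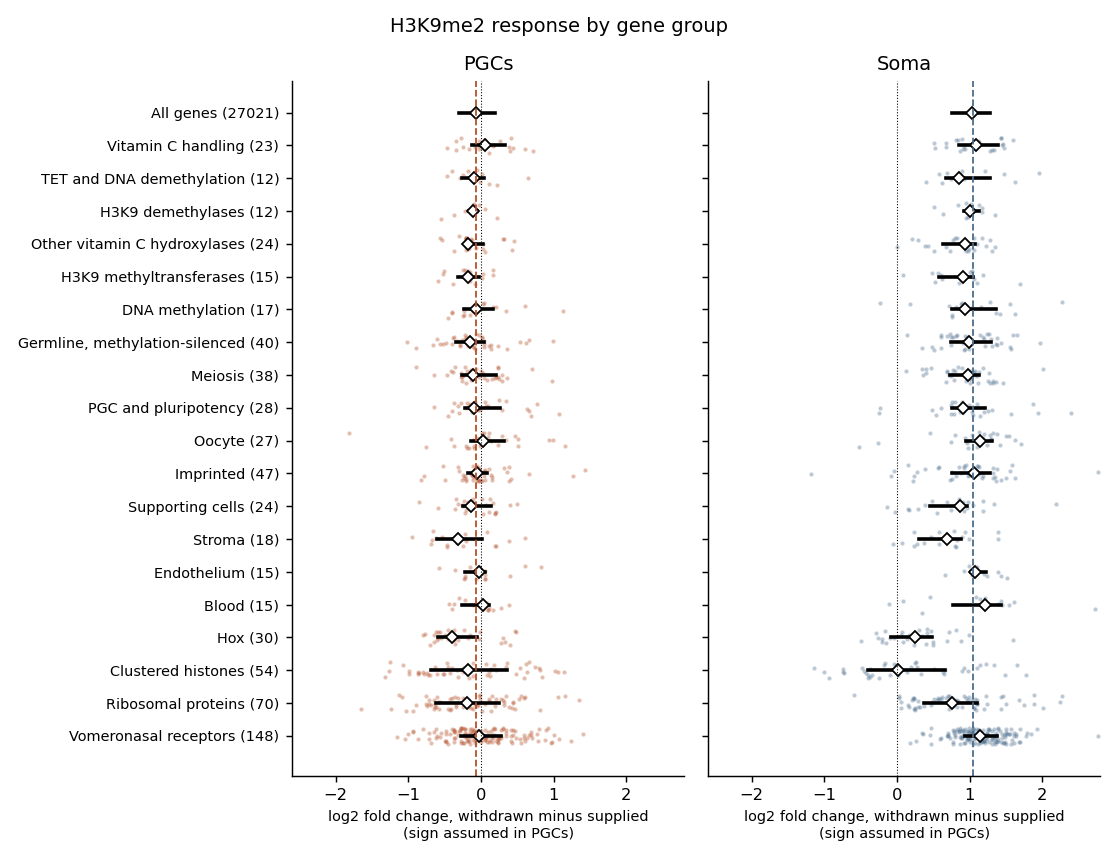
Log2 fold change (x axis) of the measured members of each gene list (rows, number measured in brackets) in PGCs, left, and soma, right; dots are genes, diamonds medians, black bars quartiles, dashed lines the median of all genes in that table. Of the lists drawn, PGC medians include -0.40 for Hox genes and 0.06 for vitamin C handling, whose sign turned among higher levels; in soma Hox genes and clustered histones lie at 0.24 and 0.01, left of the other lists.

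Several gene families that lie in clusters were also counted. Of 30 Hox genes, which pattern the body axis, 6 were above 0, with a median of -0.40, a range from -0.80 for Hoxc10 to 0.49 for Hoxb1, and 0 at an unadjusted p under 0.05 in the authors' deposited table. Of 798 olfactory receptor genes 263 were above 0 with a median of -0.25, and 23 (2.88%, against 0.984% of all genes) had an unadjusted p under 0.05 in the authors' deposited table. Olfr109, whose promoter window holds no CG, was the lowest of them at -2.39 ± 0.73 (p = 0.000965, limma, adjusted p = 1.00) and Olfr181 the highest at 1.68 in the authors' deposited table. Their median level was 1.54 log2 CPM, against 3.52 for all genes, and the spread between genes is widest at low levels. Of all genes with levels from 1.42 to 1.97 log2 CPM, 2.89% had an unadjusted p under 0.05. From 0.50 to 1.42 log2 CPM the share was 2.07%. The receptors' share of 2.88% was thus close to that of all genes around the receptors' median level. Over the 23 receptors above the median level of all genes, their median log2 fold change was -0.11. The other sensory family, 148 vomeronasal receptors, had a median of -0.03, whose sign turned under weighting, with 69 above 0 in the authors' deposited table. Of 70 cytosolic ribosomal protein genes 26 were above 0 (median -0.19) and of 54 clustered histone genes 22 (median -0.18), and of 357 Zfp genes 140 (median -0.10) in the authors' deposited table.

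By chromosome, the autosomes had a median of -0.065 and the X chromosome -0.049 in the authors' deposited table. The 54 Y-linked genes had a median of -0.61, with 7 above 0 against 42.7% of all genes, and 0 had an unadjusted p under 0.05 in the authors' deposited table. All 13 mitochondrial genes were above 0, with a median of 0.40, and ND6 had the smallest p at 1.05 ± 0.50 (p = 0.0361, limma, adjusted p = 1.00) in the authors' deposited table. Mitochondrial DNA carries no histones, and its genes had a median level of 5.67 log2 CPM per kilobase, against -0.55 for autosomal genes. In soma these 13 genes had a median log2 fold change of 1.39, against 1.04 for all genes. There 11 of the 13 passed above 0 and 0 below, where 68.3% of all genes passed in either direction. The source of this shift over mitochondrial genes was not tested. By promoter CG count, the median was -0.037 over 5172 genes with at most 3 CG and -0.096 over 6320 genes with at least 20, on the log2 fold change scale.

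The genes with the smallest p-values were of mixed kinds, and none passed. Above 0, Erdr1 led at 1.58 ± 0.47 (p = 0.000698, limma, adjusted p = 1.00), with a level of 6.06 log2 CPM, in the authors' deposited table. Malat1, an abundant nuclear long RNA, stood at 1.37 ± 0.55 (unadjusted p = 0.0135, limma) in the authors' deposited table. In soma both rose, Erdr1 by 3.11 and Malat1 by 2.84 in the authors' deposited table. Tspan1, a membrane tetraspanin, stood at 2.07 and Atp5d, a subunit of the mitochondrial ATP synthase, at 1.79 in the authors' deposited table. Below 0, Spc25, a kinetochore protein, stood at -1.93 ± 0.65 and Romo1, a mitochondrial membrane protein, at -1.97 ± 0.73 in the authors' deposited table. Levels of Tspan1, Atp5d, Spc25 and Romo1, between 1.36 and 2.62 log2 CPM, were below the median gene's 3.52.

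Repeat classes had medians on both sides of 0, with long terminal repeat (LTR) retrotransposons above it and LINE-1 below, although no family passed. These elements are copies of retroviruses and of non-LTR transposons that H3K9 methylation and DNA methylation keep silent. The share above 0 also varied over 10 equal bins of all families by level. It was 51.4% in the lowest bin, 75.3% in bin 6 and 19.9% in bin 10, whose median was -0.18. Rodent LINE-1 had a median level of 12.3 log2 CPM, older LINE-1 8.14 and IAP 5.95. Class was not separated from level by any test. Of 25 IAP families, among the most active mouse retroviruses, 22 were above 0, with a median of 0.32, against 807 of all 1456 (55.4%) with a median of 0.05 by the authors' deposited table. The internal part IAPEz-int stood at 0.48 ± 0.60, its LTR IAPLTR1_Mm at 0.68 ± 0.63 and IAPLTR1a_Mm at 0.46 ± 0.65 in the authors' deposited table. The highest IAP family was IAPA_MM-int at 1.40 ± 0.71 (unadjusted p = 0.0568, limma) and the lowest IAP1-MM_I-int at -0.53 ± 0.49 in the authors' deposited table. All 10 ETn and MusD families were above 0 (median 0.26), with ETnERV-int at 0.41 ± 0.58, in the authors' deposited table.

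Other LTR classes lay in the same range. Of 218 other ERVK families 195 were above 0 (median 0.31), of 96 ERV1 families 72 (0.27), of 77 ERVL families 62 (0.22) and of 102 MaLR families 82 (0.24) in the authors' deposited table. Within MaLR the younger ORR1 families had 28 of 29 above 0 (median 0.35) and the MT families 19 of 19 (0.34), while the older MLT1 families had 34 of 53 (0.11), in the authors' deposited table. MERVL-int, the retrovirus of early cleavage embryos, stood at 0.12 ± 0.47 and its LTR MT2_Mm at -0.02 ± 0.49 in the authors' deposited table. No LTR family had an unadjusted p under 0.05 by limma, and the median SE of IAP families, 0.61, was larger than their median.

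No LINE-1 family had an unadjusted p under 0.05, and no difference between subfamilies was tested. Among 38 rodent LINE-1 families 3 were above 0 with a median of -0.17, and among 91 older mammalian families 24 were above 0 with a median of -0.18 by the authors' deposited table. The youngest, L1Md, had a median of -0.04 over 6 families, with L1Md_A at 0.04 ± 0.49, L1Md_T at -0.02 ± 0.47 and L1Md_F2 at -0.15 ± 0.41, in the authors' deposited table. All 9 L1MA and all 7 L1MB families were below 0, with medians of -0.46 and -0.57, and L1MB1 was the lowest L1MB family, at -0.63 ± 0.41 in the authors' deposited table. In the authors' deposited table the L1MC median was -0.12 and the L1ME median -0.11. In soma the L1MA and L1MB medians were 0.29 and 0.21, and 0 of these 16 families passed there, while 37 of the 38 rodent LINE-1 families rose, where 77.4% of all families passed in either direction (6 of them lower), by the authors' deposited table.

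SINEs, satellites and DNA transposons lay closer to the middle. Of 36 SINE families 20 were above 0 (median 0.01), with B1_Mm at -0.04 ± 0.51 and B2_Mm1a at -0.21 ± 0.41, in the authors' deposited table. GSAT_MM, the major satellite of mouse pericentromeres, stood at 0.41 ± 0.53 in the authors' deposited table. Of 221 DNA transposon families 89 were above 0 (median -0.09), and UCON23 had one of the only 2 unadjusted p-values under 0.05 among all families, at -1.48 ± 0.63 (p = 0.0256, limma, adjusted p = 1.00), in the authors' deposited table. The other, the simple repeat (CCTAT)n, stood at 1.63 ± 0.70 (p = 0.0262, limma, adjusted p = 1.00) in the authors' deposited table. The 53 UCON and Eulor families, ancient conserved elements, had a median of -0.34 with 3 above 0. By name, UCON23 and Eulor5A of these were counted in the DNA transposon class. Among better known DNA transposons, 26 of 38 Charlie families (median 0.05) and 12 of 28 Tigger families (median -0.03) were above 0.

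Simple repeats were described by the base composition of their unit, with no test between the groups. Those of A and T alone had a median of -0.35 over 16 families, with 1 above 0, and those with more G and C than A and T had a median of -0.03 over 117, with 55 above 0, in the authors' deposited table. Named by strand, (AACTG)n and its reverse complement (CAGTT)n stood at -0.76 ± 0.41 and -0.70 ± 0.42, at levels of 10.0 and 9.73 log2 CPM, in the authors' deposited table. Over 131 such reverse-complement pairs the values differed by a median of 0.13 log2 units, and by 0.061 over the 63 pairs with both members above the median family level, which may share reads.

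**Figure D5:**
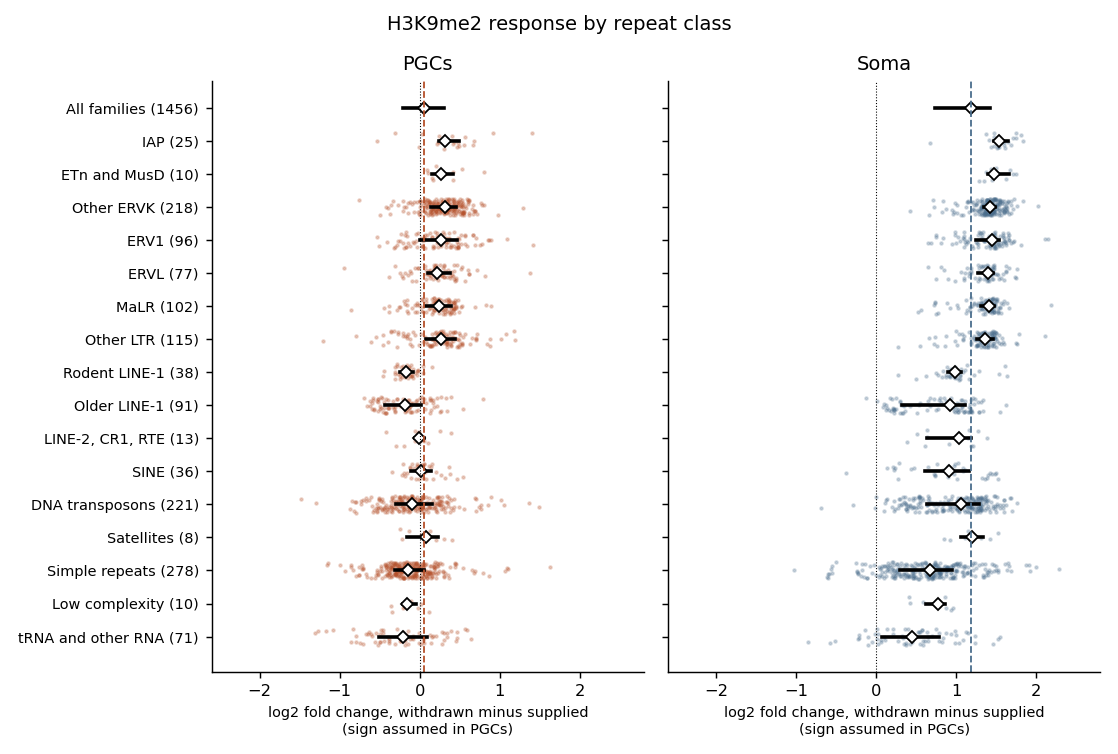
Log2 fold change (x axis) of repeat families by class (rows, number measured in brackets) in PGCs, left, and soma, right; dots are families, diamonds medians, black bars quartiles, dashed lines the median of all families. With the PGC sign as assumed, LTR classes lie right of LINE-1 in both, at 0.32 for IAP and -0.17 for rodent LINE-1 in PGCs, and at 1.53 and 0.98 in soma.

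The difference between the responses of PGCs and soma was tested directly, PGC minus soma. Over 26721 shared genes 0 (0%) passed a two-sided test with Satterthwaite degrees of freedom and Benjamini-Hochberg adjustment (lowest adjusted p = 0.105), and 9209 (34.5%) had an unadjusted p under 0.05, 9205 of them lower in PGCs. Over 1445 shared families 0 (0%) passed (lowest adjusted p = 0.192), and 341 (23.6%) had an unadjusted p under 0.05, all lower in PGCs. The PGC value lay below the soma value for 25560 genes (95.7%) and 1413 families (97.8%), with a median difference of -1.07 and -1.06 log2 units, against a median SE of 0.67 and 0.64. Such a shared offset depends on the authors' library scaling in each table, which is not given. How far it depends on the scaling was not tested. With the residual degrees of freedom of 8 in PGCs and 5 in soma, 6449 genes and 179 families had an unadjusted p under 0.05. With the PGC sign turned, the PGC value lay below the soma value for 24538 genes (91.8%) and 1297 families (89.8%), with median differences of -0.96 and -1.22, and 256 genes and 397 families passed, all lower in PGCs. After each table was centred on its own median 0 genes and 0 families passed (514 and 12 at an unadjusted p under 0.05), and with centring and the turned sign 4 genes and 3 families did.

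Single genes show the sizes behind these counts. For Tet1 the value was -0.05 ± 0.47 in PGCs and 1.95 ± 0.24 in soma in the authors' deposited tables, with an SE of 0.53 for their difference (adjusted p = 0.105). Postn stood at -0.94 ± 0.54 in PGCs and 1.39 ± 0.29 in soma in the authors' deposited tables, a difference of -2.33 ± 0.62 (adjusted p = 0.105). Dazl stood at 0.66 ± 0.56 in PGCs and 0.60 ± 0.34 in soma in the authors' deposited tables, a difference of 0.06 ± 0.65. Among the largest differences at the smallest p, Lipm stood at -1.23 in PGCs and 1.49 in soma, and Nmb, a bombesin-like neuropeptide, at -1.24 in PGCs and 2.04 in soma in the authors' deposited tables. Higher in PGCs was Foxq1, a forkhead transcription factor, at 1.56 in PGCs and -0.98 in soma in the authors' deposited tables, with an adjusted p of 0.105 for the difference.

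Across features the order of values in PGCs and soma was related more closely for families than for genes. Pearson's r was 0.18 over genes (Spearman's rho 0.19) and 0.57 over families (rho 0.64), a description over features that share libraries and are not independent replicates. Over 10 equal bins by level, r was 0.10 in the lowest bin of genes and 0.40 in the highest. For families r was 0.23 in the lowest bin, 0.87 in bin 9 and 0.65 in bin 10. All of these correlations rest on the assumed PGC sign, and with it turned they are negative, at -0.18 over genes and -0.57 over families. Within classes r was 0.88 over the 38 rodent LINE-1 families and 0.81 over the 91 older LINE-1 families, against 0.47 over the 25 IAP families, and -0.88, -0.81 and -0.47 with the sign turned. Median levels of these classes in PGCs were 12.3, 8.14 and 5.95 log2 CPM. Whether level accounts for the contrasts in r was not tested. L1Md_A stood at 0.04 in PGCs and 1.60 in soma, and L1MB1 at -0.63 in PGCs and 0.12 in soma, in the authors' deposited tables. The medians of L1Md and L1MB were -0.04 and -0.57 in PGCs, or 0.04 and 0.57 with the sign turned, and 1.38 and 0.21 in soma by the authors' deposited tables.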

How the data were processed

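Oct4GFP-positive PGCs of E13.5 gonads, and the negative soma, were sorted and taken through CUT&RUN, per the labels' protocols. Per the submitters' processing notes, Trim Galore 0.4.0, Bowtie2 2.2.5 and Picard are listed, with mm10 as the build. Read counting, feature filters and library scaling are not given in the sources used here. Limma statistics after voom make up the authors' deposited tables, per the file headers. They give fold changes and averages on the log2 scale, the t statistic as a score, a p-value, its Benjamini-Hochberg adjusted value, and B, a natural log of odds, in the authors' deposited tables. The p-values follow from 216168 degrees of freedom for PGC genes and 29.6 for PGC families, where the residual degrees of freedom are 8.

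Each SE equals the log2 fold change over its t, and 95% intervals used the same degrees of freedom. The PGC minus soma difference was set against the square root of both squared SEs added, taking the tables as independent. The calculation was run on simulated features drawn independently, most of them without a difference. Its behaviour where most features share a shift, as here, was not tested. Depth was derived from ratios of the lowest averages within a tolerance of 3e-11, and effective sizes include the authors' scaling. PCR reads are not independent molecules. Levels per kilobase and promoters used RefSeq GRCm38.p6, matched by symbol for 25056 genes (92.7%). Repeat classes were assigned by family name. Members and lists were chosen with earlier results of these data known. Genes named are those with the smallest p per direction, per list and for the difference, and a fixed set of germline, chromatin and vitamin C genes. The highest and lowest members of lists, and some further families, were named after their values were seen. Labels give biological replicates. For PGC genes the degrees of freedom equal the residual 8 times all 27021 genes. Their SEs and p-values thus rest on a replicate spread pooled over the genes, not on each gene's own. For PGC families the spread was pooled in part. Alternatives changed the degrees of freedom, threshold, level filter, feature set, centring and sign. Computation used Python 3.11.15, numpy 2.4.6, pandas 2.3.3, scipy 1.17.1 and matplotlib 3.10.9.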

Additional observations from a re-analysis of the deposited data

How the results depend on the processing

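No paired analysis was possible because the tables list no values per library, and for the same reason libraries could not be left out. The counts of 0 genes and 0 families passing in PGCs stayed at 0 in every alternative run: thresholds of 0.1 and 0.2, residual degrees of freedom, higher averages only, centring and a reduced feature set. With the residual degrees of freedom of 8, 99 genes and 5 families had a 95% interval inside -1 to 1, and the PGC minus soma test gave an unadjusted p under 0.05 for 6449 genes and for 179 families. With the PGC sign turned, 256 genes and 397 families passed the PGC minus soma test, and with centring and the turned sign 4 genes (Ttc12, Papd5, Malat1 and Erdr1) and 3 families, MMAR1 among them, did. The other alternatives of that test left 0 and 0. Weighting by precision shifted list medians by -0.089 to 0.088 and turned the sign of 4 of 30, the oocyte, blood, vomeronasal and H2 lists. Keeping higher averages shifted them by -0.37 to 0.40 and turned 4 of 28, the oocyte, vitamin C handling, endothelium and H2 lists. Neither turned any of 17 repeat classes. Depth is known only as a lower bound, 6.53 reads a library for the median PGC gene, and its effect on single genes was not tested.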

Other observations

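Small structured RNA genes were outside the lists described. The 32 5S ribosomal RNA genes measured in PGCs had a median log2 fold change of -0.49, with 3 above 0 and 0 at an unadjusted p under 0.05 in the authors' deposited table; read sharing between these near-identical copies was not tested. Their soma median was 0.06. The 8 microRNA genes measured were all below 0, with a median of -0.61, at a median level of 1.05 log2 CPM in the authors' deposited table. Of 71 tRNA and other structured RNA families 22 were above 0, with a median of -0.21, and 7SLRNA stood at -0.08 in PGCs and -0.58 in soma in the authors' deposited tables. Pim3, a kinase gene, stood at 0.71 in PGCs and -1.09 in soma in the authors' deposited tables.

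Gene length moved with the spread of values. Of 10 equal bins by length, the longest genes had an SD of 0.17 in log2 fold change with 31.6% above 0, and the shortest an SD of 0.61 with 40.8% above 0. The share above 0 was highest in bin 3 counted from the shortest, at 49.2%. Median levels were 6.89 log2 CPM in the longest bin and 1.41 in the shortest, and length was not separated from level.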
